A study of Mus musculus with 48 samples.

Results

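Expression of 9 genes that mark oligodendrocyte precursor cells and their differentiation, *Pdgfra*, *Lhfpl3*, *Olig1*, *Olig2*, *Sox10*, *Gpr17*, *Bcas1*, *Enpp6* and *Myrf*, was followed in bulk RNA of the mouse brain after ischemic injury. The 9 genes were chosen by name, out of the 46983 gene identifiers of the count tables, and all 9 were among the 19970 genes tested. The samples came from 3-month-old male mice of the C57Black/6 strain, and no engineered allele is named for them. The surgery was done under isoflurane, and the methods for dissecting hemispheres name pentobarbital and perfusion. In middle cerebral artery occlusion (MCAO) the artery was closed by coagulation and cut, a permanent occlusion that leaves a small lesion in the parietal cortex. Sham mice were operated without the coagulation, and control tissue was intact cortex. The 48 libraries formed 11 groups, which were the control (4 libraries) and, at 3 h, 12 h, 24 h, day 3 and day 7, a sham (4 libraries each) and an MCAO group (5 libraries each, 4 at 24 h). The sequenced tissue held both affected and unaffected brain. The sample labels name the tissue only as brain, their extraction text as the injured cortical region and the series description as a forebrain hemisphere. The study's results describe the bulk samples as almost the whole hemisphere on the side of the lesion. The neuron markers were abundant in every library, with a sum over 6 genes between 3693 and 7704 CPM (counts scaled to a common library size), whereas the markers of striatal projection neurons summed to between 178 and 4231 CPM. The libraries thus differed widely in genes of a region under the cortex.

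Oligodendrocyte precursor cells are spread through the grey and white matter of the adult brain, divide slowly, and give rise to the oligodendrocytes that wrap axons in myelin. Platelet-derived growth factor, acting through its alpha receptor, keeps precursors dividing and alive. Cells that leave this state pass through a committed stage and then a newly formed, premyelinating stage before the genes of compact myelin are switched on. After brain injury, precursors are known to divide and to gather around the lesion, and part of them go on to differentiate.

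The products of the 9 genes act at different steps. *Pdgfra* (chromosome 5 of GRCm38, 75152292 to 75198215) encodes the alpha receptor for platelet-derived growth factor and is also expressed in fibroblasts. *Lhfpl3* (chromosome 5, 22746059 to 23275597) encodes a membrane protein used as a precursor marker. *Olig2* (chromosome 16, 91225457 to 91228677) and *Olig1* (chromosome 16, 91269772 to 91271933) are neighbours, 41094 bases apart, and encode basic helix-loop-helix transcription factors of the lineage. *Sox10* (chromosome 15, 79154908 to 79165240) encodes an HMG-box transcription factor that acts from the precursor to the myelinating cell. *Gpr17* encodes a G protein-coupled receptor carried by committed precursors and lost again before myelination. *Enpp6* (chromosome 8, 46986887 to 47096762) encodes a choline phosphodiesterase that marks newly forming oligodendrocytes. *Bcas1* (chromosome 2, 170346991 to 170427845) marks early myelinating cells and stays expressed in myelin. *Myrf* (chromosome 19, 10208272 to 10240748) encodes a membrane-bound transcription factor that switches on myelin genes.

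*Pdgfra* and *Lhfpl3* were both called on day 7 after MCAO, as described further on, and their promoters are shown for that reason. The RefSeq promoter sequences of GRCm38.p6, from 250 bases before to 50 bases after the start, were matched for 4 of the 9 genes. Capitals mark E-boxes (CANNTG, the same on both strands), the words that basic helix-loop-helix factors such as OLIG1 and OLIG2 recognise. *Pdgfra* (chr5:75152001-75152300, plus strand) held 2 E-boxes, and *Lhfpl3* (chr5:22745804-22746103, plus strand) held 2, both with the letters CAGCTG.
Pdgfra: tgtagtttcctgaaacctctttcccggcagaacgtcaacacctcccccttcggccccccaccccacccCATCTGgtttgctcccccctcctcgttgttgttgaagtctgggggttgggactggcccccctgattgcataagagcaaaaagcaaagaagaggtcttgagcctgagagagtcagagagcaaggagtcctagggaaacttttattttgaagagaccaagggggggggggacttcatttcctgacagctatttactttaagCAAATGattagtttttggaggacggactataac
Lhfpl3: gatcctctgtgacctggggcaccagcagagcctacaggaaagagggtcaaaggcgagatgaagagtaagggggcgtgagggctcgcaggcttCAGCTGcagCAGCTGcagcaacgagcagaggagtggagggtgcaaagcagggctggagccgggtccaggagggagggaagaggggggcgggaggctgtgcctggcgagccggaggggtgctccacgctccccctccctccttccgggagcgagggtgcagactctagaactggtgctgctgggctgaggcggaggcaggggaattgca
The promoters of *Olig2* and *Enpp6* held 0 E-boxes in the same window. Of 32851 RefSeq promoters of this length, 72.3% held at least 1 CANNTG and 16.3% held CAGCTG, so that neither match sets these promoters apart. A match of letters is not a binding site, and binding was not measured here.

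Each library held between 1522668 and 2826735 counts on genes, with a median of 1935856. Levels are given as TMM-normalized CPM. They are not divided by transcript length, and the library kit reads only the 3′ ends of transcripts, so levels are compared within a gene and not between genes. At this depth *Olig1* was counted 112 to 559 times per library, *Bcas1* 77 to 692 times, *Sox10* 32 to 164 times, *Olig2* 10 to 149 times, *Gpr17* 5 to 96 times, *Myrf* 6 to 88 times, *Pdgfra* 4 to 85 times and *Lhfpl3* 6 to 44 times. *Enpp6* was counted between 0 and 24 times, and its values carry the largest counting error. In bulk RNA, fewer cells of a type and less RNA per cell cannot be told apart.

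**Figure D1:**
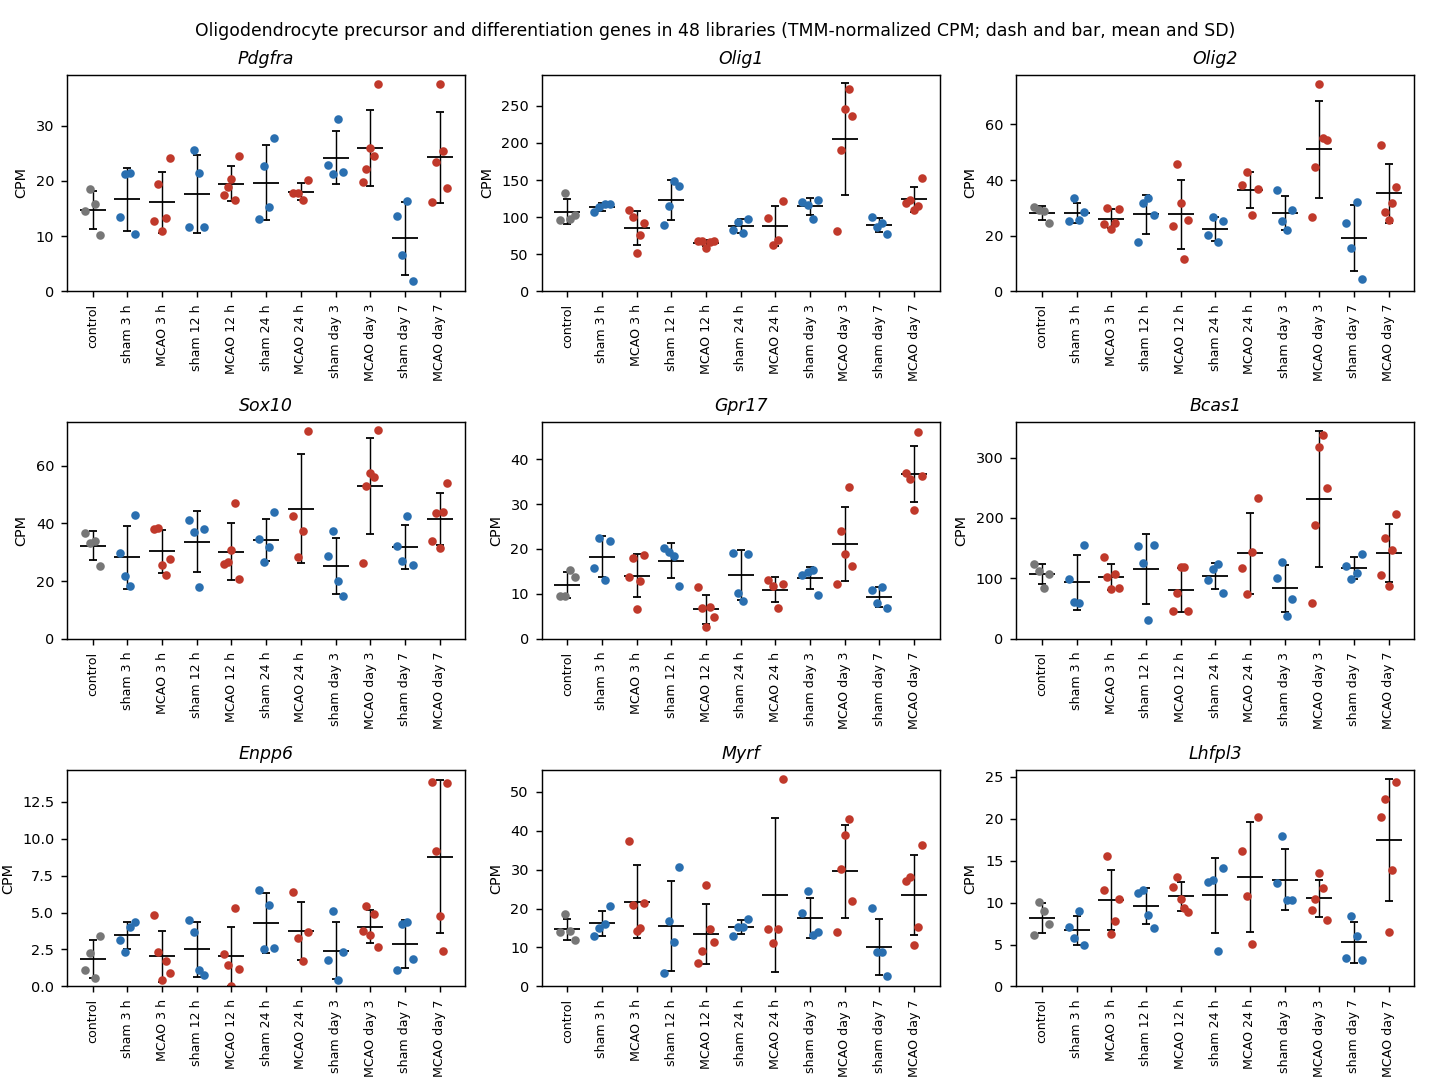
Level of each of the 9 genes in every library (points; TMM-normalized CPM on the vertical axes, groups on the horizontal axes; grey, control; blue, sham; red, MCAO), with the mean and SD of the group (dash and bar). The 5 day 7 MCAO libraries of *Gpr17* sit between 28.6 and 46.1 CPM, above all 24 control and sham libraries.

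Without occlusion, the 9 genes were not called as different among the control and the 5 sham groups. An F-test over these 6 groups called 0.115% of all genes (23) and 0 of the 9 with edgeR, with 2 of the 9 at an unadjusted p under 0.05 and 0 called by DESeq2. *Olig1* had a mean of 106 ± 19.1 CPM over the 24 control and sham libraries (SD), with group means from 87.9 to 123.5. *Gpr17* had a mean of 14.1 ± 4.602 CPM over the same 24 libraries. Its group means ran from 9.27 CPM in the day 7 sham to 18.3 in the 3 h sham. *Pdgfra* (17.1 ± 6.90 CPM) and *Lhfpl3* (8.88 ± 3.62 CPM) had their lowest control or sham mean in the day 7 sham, at 9.61 and 5.26 CPM, and their highest in the day 3 sham, at 24.2 and 12.7 CPM. These sham levels enter every comparison of MCAO with sham. Comparisons with the control are given for 24 h, day 3 and day 7, and were not made at 3 h and 12 h.

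At 3 h and 24 h after MCAO none of the 9 genes passed the threshold (edgeR's quasi-likelihood test, with an adjusted p below 0.01 and a log2 fold change beyond 0.58 in either direction). Of the 19970 genes tested, 1688 at 3 h, 2917 at 12 h and 1757 at 24 h had an unadjusted p under 0.05 against sham. At 3 h 0.11% of all genes were called and 0 of the 9, with 1 of the 9 at an unadjusted p under 0.05 and 0 by DESeq2. That gene was *Olig1*, at 85.8 ± 22.8 CPM (SD, n = 5) after MCAO and 114 ± 5.04 CPM (n = 4) in sham, with a log2 fold change of -0.41 (adjusted p = 0.588 in edgeR, 0.414 to 0.831 over 16 alternatives). At 24 h 0.0901% of all genes were called and 0 of the 9, with 1 at an unadjusted p under 0.05 and 0 by DESeq2. That gene was *Olig2*, measured at 38.2, 43.0, 27.5 and 36.7 CPM after MCAO and at 20.2, 26.6, 17.7 and 25.2 CPM in sham. All 4 MCAO libraries lay above all 4 sham libraries, but the log2 fold change of 0.70 had an adjusted p of 0.508 in edgeR (0.177 to 0.773 over 15 alternatives). The median log2 fold change of the 9 genes was -0.046 at 3 h and 0.234 at 24 h, against 0 and 0.016 over all genes tested. Against the control, 0.28% of all genes were called at 24 h and 0 of the 9, with 0 at an unadjusted p under 0.05 and 0 by DESeq2.

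At 12 h the levels of *Olig1* and *Gpr17* were lower after MCAO in every library, although neither passed the threshold. *Gpr17* was measured at 11.5, 6.80, 2.61, 7.06 and 4.76 CPM after MCAO and at 20.1, 19.3, 18.5 and 11.7 CPM in the 12 h sham. The groups did not overlap, but the highest MCAO library was only just below the lowest sham, and it lay within the range of the control libraries (9.49 to 15.2 CPM). The log2 fold change was -1.35 (standard error 0.31, adjusted p = 0.0157 from edgeR). *Olig1* was measured at 67.9, 67.5, 58.4, 66.5 and 67.9 CPM after MCAO and at 88.8, 115, 148 and 142 CPM in sham, again without overlap. Its log2 fold change was -0.92 (standard error 0.21, adjusted p = 0.0115 from edgeR). At this time 0.411% of all genes were called and 0 of the 9 with edgeR, with 2 at an unadjusted p under 0.05 and both of these called by DESeq2. The adjusted p ranged from 0.00237 to 0.0757 for *Olig1* and from 0.00295 to 0.178 for *Gpr17* over 16 alternatives. *Gpr17* was called without MCAO replicate A (log2 fold change -1.70, adjusted p = 0.00295 in edgeR), and *Olig1* without sham replicate A (-1.05, adjusted p = 0.00767 in edgeR). The other 7 genes had log2 fold changes that did not reach an unadjusted p of 0.05, and the median of the 9 was -0.231, against 0.013 over all genes. *Pdgfra* was at 19.5 ± 3.11 CPM after MCAO (SD, n = 5) and 17.6 ± 7.01 in sham (n = 4), and *Olig2* at 27.6 ± 12.4 and 27.7 ± 7.05 CPM. The summed myelin genes stood lower in the 12 h MCAO libraries as well (1067 to 2258 CPM, against 1836 to 4158 in sham), and so did the markers of striatal projection neurons (399 to 1511 against 673 to 2334 CPM). The part of subcortical tissue in the 12 h values was not tested.

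**Figure D2:**
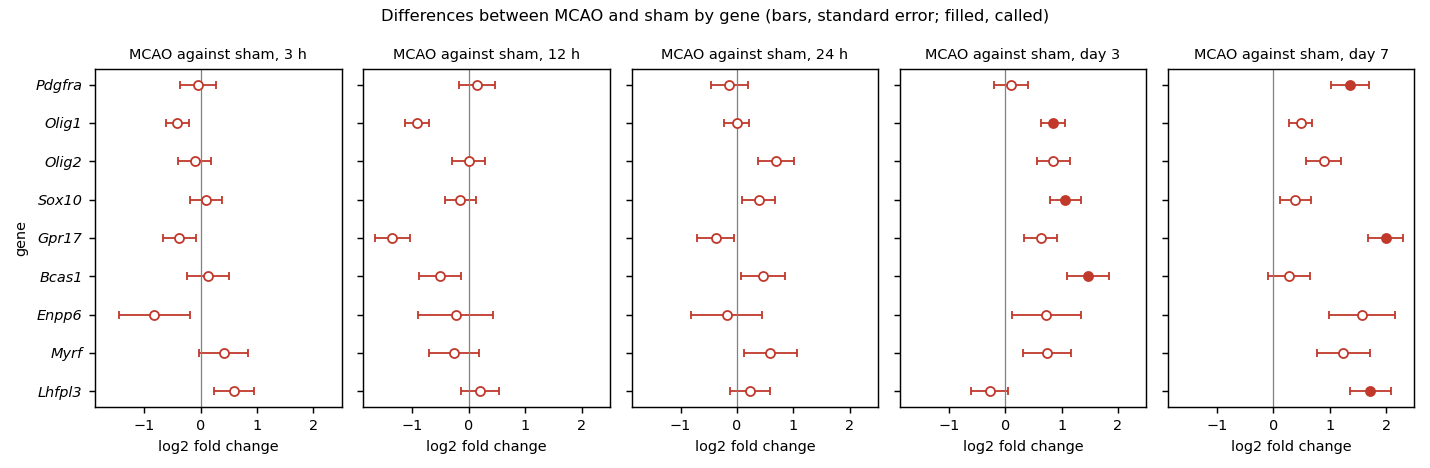
Log2 fold change of MCAO against sham for each gene at each time (points, with the standard error as bars; filled points passed the threshold). The filled points are *Olig1*, *Sox10* and *Bcas1* on day 3 and *Pdgfra*, *Gpr17* and *Lhfpl3* on day 7.

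On day 3 the transcription factors *Olig1* and *Sox10* and the early myelinating marker *Bcas1* rose against the sham of the same day. Of all genes 4.02% were called, and of the 9 genes 3 were called, all higher, with 5 of the 9, and 4306 of the 19970 genes, at an unadjusted p under 0.05. *Olig1* was measured at 81.7, 191, 246, 273 and 237 CPM after MCAO and at 121, 117, 97.2 and 123 CPM in sham. Replicate A lay below the shams, and the other 4 MCAO libraries lay above all of them. The log2 fold change was 0.85 (standard error 0.21, adjusted p = 0.00471 from edgeR). *Sox10* was measured at 26.2, 52.9, 57.4, 56.2 and 72.3 CPM after MCAO and at 28.7, 37.4, 20.1 and 15.0 CPM in sham. Its log2 fold change was 1.07 (standard error 0.28, adjusted p = 0.00935 from edgeR), with 4 of 5 MCAO libraries above all shams. *Bcas1* was measured at 59.3, 188, 318, 338 and 249 CPM after MCAO and at 101.5, 128, 38.3 and 66.1 CPM in sham. The change was the largest of the 3, at 1.46 on the log2 scale (standard error 0.38, adjusted p = 0.00826 from edgeR), and again only replicate A overlapped the shams.

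These 3 calls stood close to the threshold. They were lost when the spike-in RNAs set the scale, with the replicate letter as a block, in a fit of the compared groups alone, and without any of MCAO replicates C, D or E or sham replicates A, C or D. Over 16 alternatives the adjusted p ranged from 2.43e-05 to 0.113 for *Olig1*, from 0.00115 to 0.0787 for *Sox10* and from 0.000429 to 0.0572 for *Bcas1* (edgeR or DESeq2), and the direction stayed the same. Without MCAO replicate A the log2 fold changes were 1.05 for *Olig1*, 1.23 for *Sox10* and 1.71 for *Bcas1*. That library stood apart in other genes too. Its microglia markers summed to 549 CPM and its cell cycle genes to 16.6 CPM, against 1018 to 1963 and 182 to 342 CPM in the other 4 day 3 MCAO libraries.

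The other 6 genes were not called on day 3. *Olig2* was measured at 26.7, 44.7, 74.4, 55.2 and 54.2 CPM after MCAO and at 36.3, 25.4, 21.96 and 29.1 CPM in sham. It followed the pattern of *Olig1*, with 4 of 5 MCAO libraries above all shams, and its log2 fold change of 0.85 had an adjusted p of 0.0544 in edgeR (0.0121 to 0.263 over 16 alternatives). *Gpr17* had a log2 fold change of 0.63 (adjusted p = 0.19 in edgeR, 0.0802 to 0.475 over the alternatives), with 4 of 5 libraries above all shams. *Pdgfra* was at 26.0 ± 6.85 CPM (SD, n = 5) and 24.2 ± 4.76 CPM in sham (n = 4), and *Lhfpl3* at 10.5 ± 2.18 and 12.7 ± 3.65 CPM. Neither of these precursor markers reached an unadjusted p of 0.05, and nor did *Myrf* (29.6 ± 12.0 against 17.6 ± 5.22 CPM) or *Enpp6* (4.04 ± 1.11 against 2.43 ± 1.94 CPM). The median log2 fold change of the 9 genes was 0.747, with 8 of 9 above 0, against a median of 0.012 over all genes.

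On day 7 a different set of the 9 genes passed the threshold, namely the committed precursor receptor *Gpr17* and the precursor markers *Pdgfra* and *Lhfpl3*. Of all genes 3.5% were called, and of the 9 genes 3, all higher, with 7 of the 9, and 4698 of the 19970 genes, at an unadjusted p under 0.05. *Gpr17* was measured at 36.9, 35.6, 28.6, 46.1 and 36.3 CPM after MCAO and at 10.9, 7.93, 11.5 and 6.84 CPM in the day 7 sham. Every MCAO library was far above every sham, and also above the highest of all control and sham libraries, which held 22.5 CPM. The log2 fold change was 1.99 (standard error 0.31, adjusted p = 3.7e-05 from edgeR). It was called in all 16 alternatives, with log2 fold changes from 1.85 to 2.11 and an adjusted p of at most 0.00103 (edgeR or DESeq2).

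*Lhfpl3* was measured at 20.2, 22.4, 6.54, 13.9 and 24.4 CPM after MCAO and at 3.43, 8.399, 5.996 and 3.19 CPM in the day 7 sham. All but MCAO replicate C lay above the shams. The log2 fold change was 1.71 (standard error 0.36, adjusted p = 0.00158 from edgeR), and it was called in 14 of 16 alternatives (adjusted p from 0.000156 to 0.0211). The call was lost without sham replicate D (1.51, adjusted p = 0.0196 in edgeR) and with only the compared groups in the fit (adjusted p = 0.0211 in edgeR). The value of *Lhfpl3* is uncertain, because the same strand also carries *Gm21846*, a transcript whose existence the annotation leaves to be tested, which received 1388 counts over all libraries to the 1023 of *Lhfpl3*, and reads could be split between them. *Gm21846* had a log2 fold change of 1.28 on day 7 (adjusted p = 0.0687 in edgeR). *Gpr17* overlaps *Lims2* on the opposite strand, whose log2 fold change on day 7 was -0.07 (adjusted p = 0.942 in edgeR). At 12 h, where *Gpr17* was lower, *Lims2* had a log2 fold change of -0.99 (adjusted p = 0.185 in edgeR).

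*Pdgfra* was measured at 16.2, 23.4, 37.5, 25.4 and 18.8 CPM after MCAO on day 7 and at 13.7, 6.53, 16.4 and 1.83 CPM in sham. The lowest MCAO library lay just under the highest sham, and the other 4 lay above all shams. The log2 fold change was 1.36 (standard error 0.34, adjusted p = 0.00639 from edgeR), and it was called in 10 of 16 alternatives, whose adjusted p ranged from 0.000716 to 0.0669. Single libraries moved it between 0.99 and 1.76. Without sham replicate D, the library at 1.83 CPM, the log2 fold change was 0.99 (adjusted p = 0.0643 in edgeR), and without MCAO replicate C, the library at 37.5 CPM, it was 1.16 (adjusted p = 0.0381 in edgeR). Without sham replicate C, the library at 16.4 CPM, it was 1.76 (adjusted p = 0.00224 in edgeR). The call was also lost without MCAO replicate D, without sham replicate B, under spike-in scaling and with only the compared groups in the fit. In MCAO replicate C the fibroblast markers summed to 5921 CPM, against 186 to 560 CPM in the other 4 MCAO libraries and 70.3 to 140 CPM in the day 7 shams, and fibroblasts also express *Pdgfra*. With that library left out, its level in the remaining 4 was 16.2 to 25.4 CPM. The part of fibroblasts in the *Pdgfra* level was not tested.

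*Enpp6*, *Myrf*, *Olig2*, *Olig1*, *Sox10* and *Bcas1* were not called against sham on day 7. *Enpp6* was measured at 13.9, 9.16, 4.76, 2.40 and 13.8 CPM after MCAO and at 1.14, 4.20, 4.36 and 1.83 CPM in sham. In 4 of 5 MCAO libraries it was above all shams, and its log2 fold change of 1.57 had an adjusted p of 0.0824 in edgeR (0.0389 to 0.254 over 16 alternatives). *Myrf* had a log2 fold change of 1.24 (adjusted p = 0.0817 in edgeR, 0.0246 to 0.33 over the alternatives) and *Olig2* one of 0.89 (adjusted p = 0.0553 in edgeR, 0.0113 to 0.324). Both rested in part on sham replicate D, which held 2.74 CPM of *Myrf* and 4.56 CPM of *Olig2*. Without it the log2 fold changes were 0.90 and 0.54. *Olig1* was measured at 119, 124, 110, 115 and 153 CPM after MCAO and at 99.6, 86.8, 92.1 and 77.6 CPM in sham. The groups did not overlap, but the log2 fold change of 0.48 was under the 0.58 needed for a call (adjusted p = 0.141 in edgeR, 0.0573 to 0.361 over the alternatives). *Sox10* (41.5 ± 8.94 against 31.8 ± 7.67 CPM) and *Bcas1* (142 ± 47.5 against 117 ± 17.4 CPM), which had been called on day 3, did not reach an unadjusted p of 0.05 on day 7. All 9 log2 fold changes were above 0, with a median of 1.24 against 0.056 over all genes.

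**Figure D3:**
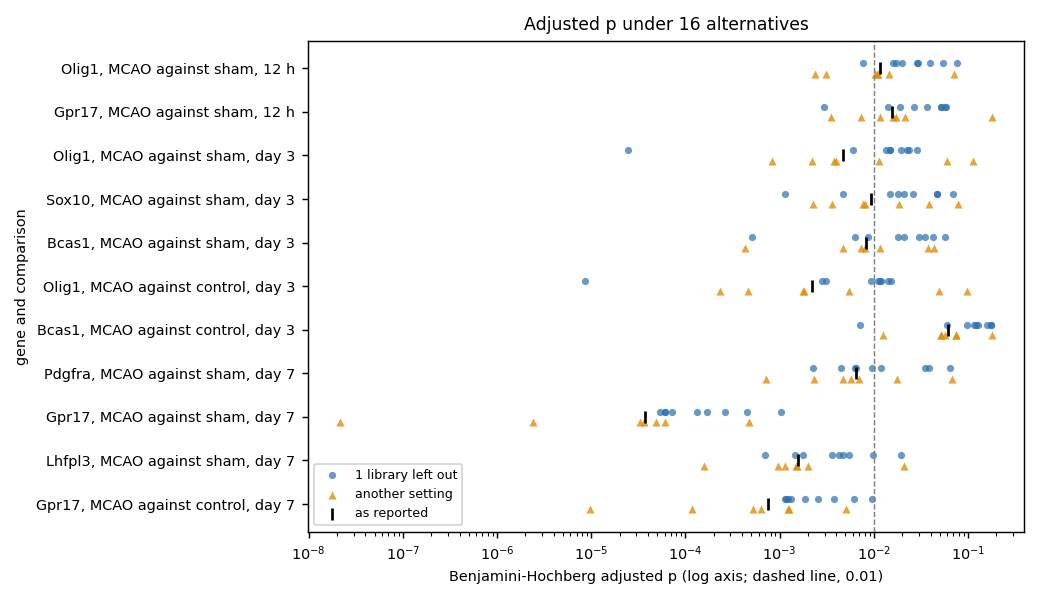
Adjusted p of the genes and comparisons that were called, or became so in an alternative (log axis; black bars, as reported; blue circles, 1 library left out; orange triangles, another setting; dashed line, 0.01). *Gpr17* on day 7 stays under 0.01 in all 16 alternatives against sham and against control, while the points of the other genes lie on both sides of the line.

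Against the control group, whose comparisons share the MCAO libraries with those against sham and share the control libraries among themselves, *Olig1* was called on day 3 and *Gpr17* on day 7. On day 3 3.1% of all genes were called and 1 of the 9, with 7 of the 9, and 3950 of all genes, at an unadjusted p under 0.05. *Olig1* was at 96.5, 133, 97.7 and 103 CPM in the control, and its log2 fold change was 0.94 on day 3 (standard error 0.21, adjusted p = 0.00218 from edgeR). It was called in 9 of 16 alternatives (adjusted p from 8.66e-06 to 0.097) and lost without MCAO replicate C or D or control replicate A, C or D, under spike-in scaling and with only the compared groups in the fit. *Pdgfra* was measured at 19.8, 22.1, 26.0, 24.4 and 37.5 CPM on day 3 and at 14.5, 18.6, 15.8 and 10.3 CPM in the control. The groups did not overlap, and the log2 fold change of 0.81 had an adjusted p of 0.124 in edgeR (0.0577 to 0.376 over the alternatives). *Bcas1* had a log2 fold change of 1.11 (adjusted p = 0.062 in edgeR, 0.00716 to 0.179) and was called only without MCAO replicate A, at 1.35. *Sox10*, called against sham, had a log2 fold change of 0.72 against the control (adjusted p = 0.115 in edgeR, 0.0264 to 0.411).

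On day 7 1.5% of all genes were called against the control and 1 of the 9, with 4 of the 9, and 2982 of all genes, at an unadjusted p under 0.05. *Gpr17* was at 9.49, 9.56, 15.2 and 13.7 CPM in the control, all below the 5 MCAO libraries. Its log2 fold change was 1.61 (standard error 0.30, adjusted p = 0.000744 from edgeR), and it was called in all 16 alternatives, with an adjusted p of at most 0.00945. *Enpp6* was at 1.12, 2.25, 0.564 and 3.43 CPM in the control, and its log2 fold change of 2.21 (standard error 0.63) had an adjusted p of 0.0349 in edgeR (0.01 to 0.14 over the alternatives). *Lhfpl3* and *Pdgfra*, both called against the day 7 sham, had smaller differences against the control. They were 1.09 for *Lhfpl3* (adjusted p = 0.0678 in edgeR, 0.0273 to 0.236) and 0.71 for *Pdgfra* (adjusted p = 0.264 in edgeR, 0.151 to 0.604). In both genes 4 of 5 MCAO libraries lay above all controls.

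The difference between MCAO and sham was itself compared between times in the same fit. An F-test over the 5 times called 0.491% of all genes and 2 of the 9, *Gpr17* (adjusted p = 2.85e-05 from edgeR) and *Olig1* (adjusted p = 0.000989 from edgeR), and both were also called in every alternative. *Gpr17* went from a log2 fold change of -1.35 at 12 h to 1.99 on day 7, and *Olig1* from -0.92 at 12 h to 0.85 on day 3. The step from 24 h to day 3 and that from day 3 to day 7 were also tested, and earlier steps were not. From 24 h to day 3 the test called 0.01% of all genes and 0 of the 9, with 2 at an unadjusted p under 0.05 and 0 by DESeq2. From day 3 to day 7 it called 0% of all genes (3231 at an unadjusted p under 0.05, 57 called by DESeq2) and 0 of the 9, with 4 of the 9 at an unadjusted p under 0.05 and 0 by DESeq2. The 4 were *Lhfpl3* (a difference of 1.99 between the log2 fold changes, adjusted p = 0.0583 in edgeR), *Gpr17* (1.36, adjusted p = 0.113), *Pdgfra* (1.26, adjusted p = 0.161) and *Bcas1* (-1.18, adjusted p = 0.248). That *Bcas1* and *Sox10* were called only on day 3 and *Pdgfra* and *Lhfpl3* only on day 7 was therefore not shown to be a difference between these days.

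Ordered by their means over the 11 groups, 6 of the 9 genes stood highest on day 3 after MCAO (*Pdgfra*, *Olig1*, *Olig2*, *Sox10*, *Bcas1* and *Myrf*) and 3 on day 7 after MCAO (*Gpr17*, *Enpp6* and *Lhfpl3*). The lowest group was the 12 h MCAO group for *Olig1*, *Gpr17* and *Bcas1*, the day 7 sham for *Pdgfra*, *Olig2*, *Myrf* and *Lhfpl3*, the day 3 sham for *Sox10* and the control for *Enpp6*. The highest mean was 5.61 times the lowest for *Gpr17*, 3.13 times for *Olig1* and 2.096 times for *Sox10*. Of the 10 pairs of neighbouring groups in each order, 0 had ranges that did not overlap, in any of the 9 genes. The gap between neighbouring means exceeded the larger SD in 2 pairs for *Olig1*, 1 pair for *Gpr17* and 0 for the other 7 genes. Sorting by the mean puts groups of like level side by side, so overlap of neighbours is largely built in. These counts were not made over all genes and are not a trait of the 9.

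Other genes of the pathway were followed in lists chosen by name. Of 12 further precursor genes, 1 was called lower on day 3 against sham and 2 higher on day 7. *Megf11*, which encodes a membrane protein with EGF-like repeats, fell by 1.21 on the log2 scale on day 3 (adjusted p = 0.00843 from edgeR). The call held in only 6 of 16 alternatives (adjusted p up to 0.0372) and was lost with the replicate block, with the compared groups alone, without any 1 of the 4 shams and without MCAO replicate B, C, D or E. On day 7 *Vcan*, a chondroitin sulfate proteoglycan of the extracellular matrix, rose by 1.07 (adjusted p = 0.00612 from edgeR), and *Matn4*, a matrilin, by 1.13 (adjusted p = 0.00697 from edgeR), calls that held in 9 and 8 of 16 alternatives (adjusted p up to 0.0814 and 0.0377). The median of the 12 was 0.166 on day 3 and 0.314 on day 7, against 0.012 and 0.056 over all genes, and the most abundant gene was *Ptprz1*. Without MCAO replicate C 0 of the 12 were called on day 7, and both calls were also lost without sham replicate B, C or D. Of 13 genes of committed precursors and newly formed oligodendrocytes, *Itpr2*, an inositol trisphosphate receptor, rose by 0.66 on day 3 (adjusted p = 0.00794 from edgeR) and *Fyn*, a kinase that signals to the cytoskeleton of the myelinating process, rose by 0.61 on day 7 (adjusted p = 0.00205 from edgeR). *Itpr2* was called in only 5 of 16 alternatives (adjusted p up to 0.123, log2 fold change down to 0.39) and lost under spike-in scaling, with the replicate block and without any 1 of the 4 shams. *Fyn* was called in 10 of 16 (adjusted p up to 0.0205). Against the control *Itpr2* was the only gene of this list called, on day 3 and also on day 7. Those calls held in 5 and 7 of 16 alternatives, and *Fyn* was not called against the control. The median of these 13 was 0.255 and 0.531. *Casr* was at 0 in 7 of the 11 groups.

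Of 7 transcription factors that promote differentiation, *Chd7*, a chromatin remodeller, rose by 1.16 on day 3 (adjusted p = 0.00274 from edgeR; called in 9 of 16 alternatives, adjusted p up to 0.048, and lost without MCAO replicate C or E or sham replicate C or D), and 0 of the 7 were called on day 7 (4 at an unadjusted p under 0.05, 0 by DESeq2). Of 8 inhibitors of differentiation 0 were called by edgeR on day 3 or day 7. On day 7, 7 of the 8 had an unadjusted p under 0.05 and 2 were called by DESeq2. Their directions were mixed, with log2 fold changes above 0 in 5 of the 8 on day 7. Of 9 growth factors and receptors 0 were called on day 3 (0 at an unadjusted p under 0.05, 0 by DESeq2). On day 7 *Pdgfrb*, the beta receptor, rose by 1.70 (adjusted p = 0.00164 from edgeR), and *Igf1*, a growth factor for the lineage, by 3.04 (adjusted p = 1.99e-05 from edgeR). Without MCAO replicate C the log2 fold change was 1.53 for *Igf1*, still called, and 1.21 for *Pdgfrb*, which was no longer called.

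Of 12 myelin genes, *Trf*, the iron carrier transferrin, rose by 2.73 on day 3 (adjusted p = 5.29e-05 from edgeR) and was called in all 16 alternatives. Against the control, *Trf* rose by 2.89 and *Cldn11*, a tight junction protein of myelin, by 1.68 on day 3 (adjusted p = 4.21e-05 and 0.00314 from edgeR), called in 16 and 9 of 16 alternatives. The myelin list had a median of 0.622 on day 3 and 0.409 on day 7, and a summed level of 4130 ± 1509 and 3603 ± 1246 CPM after MCAO (SD, n = 5), against 3033 ± 974 and 2266 ± 375 CPM in sham (n = 4). The most abundant gene was *Mbp*. A list of 4 genes (*Serpina3n*, *C4b*, *Klk6* and *Il33*) was put together here from genes that the study names for reactive oligodendrocytes. The study found them in other data of the same injury, so the list is no independent evidence of its direction. On day 3 *Serpina3n*, *C4b* and *Klk6* rose against sham, by 5.19, 3.58 and 3.70 (adjusted p = 6.79e-08, 3.81e-08 and 0.00123 from edgeR), called in 16, 16 and 14 of 16 alternatives. On day 7 *Serpina3n* and *C4b* rose, by 2.60 and 2.96 (adjusted p = 0.00329 and 2.78e-06 from edgeR), called in 13 and 16 of 16. *Serpina3n* and *C4b* are also made by astrocytes. At 12 h *Serpina3n* was called higher, by 2.94 (adjusted p = 0.00282 from edgeR), but in only 9 of 16 alternatives (adjusted p up to 0.0251), and not without any 1 of the 4 shams or without MCAO replicate C or E. At 24 h *Serpina3n* rose by 3.33 against sham (adjusted p = 0.00184 from edgeR; called in 11 of 15 alternatives, and not without MCAO replicate D or sham replicate B, C or D). Against the control at 24 h *Serpina3n* rose by 3.86 and *C4b* by 2.499 (adjusted p = 0.000204 and 0.000281 from edgeR), both called in all 15 alternatives. Against the control on day 3 all 4 genes of this list were called higher. *Serpina3n*, *C4b* and *Klk6* were called in all 16 alternatives there, but *Il33* in only 5 (adjusted p up to 0.0579).

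**Figure D4:**
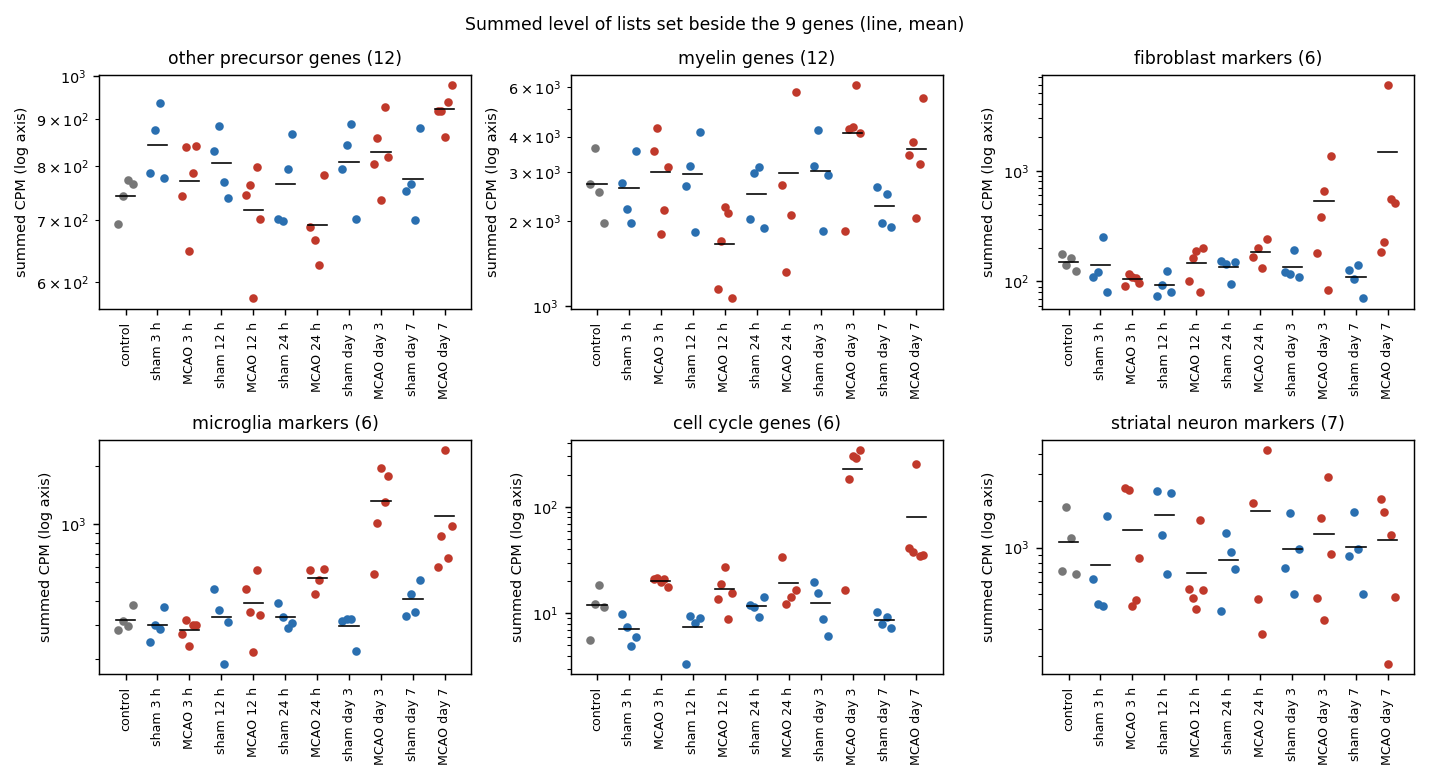
Summed level of 6 gene lists in every library (TMM-normalized CPM on log axes; grey, control; blue, sham; red, MCAO). The fibroblast markers reach 5921 CPM in 1 day 7 MCAO library, and the 4 other libraries of that group lie between 186 and 560 CPM.

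Markers of other cells moved with the same groups. On day 3 the microglia markers summed to 1321 ± 572 CPM after MCAO and 294 ± 49.8 CPM in sham, with 4 of 6 called higher, and the cell cycle genes to 227 and 12.6 CPM, with 4 of 6 called higher. *Cx3cr1* and *Top2a* were the most abundant genes of these lists. Astrocyte markers were called in 2 of 6 genes on day 3 (*Aqp4* and *Gfap*) and 3 of 6 on day 7 (also *Gja1*). Neuron markers were called lower in 1 of 6 on each day (*Snap25* by -0.67 on day 3, in 10 of 16 alternatives, and *Rbfox3* by -0.87 on day 7, in all 16). Fibroblast markers were called higher in 3 of 6 on day 3 and 4 of 6 on day 7, with *Col1a2* as the most abundant gene. The day 3 calls of *Col1a1*, *Col3a1* and *Dcn* held in 6, 9 and 10 of 16 alternatives, and that of the astrocyte gene *Aqp4* in 11. On day 7 the microglia markers were called in 2 of 6 and the cell cycle genes in 4 of 6. Without MCAO replicate C these counts on day 7 were 3 of 6 for fibroblasts, 1 of 6 for microglia and 1 of 6 for the cell cycle genes. *Gpr17* in that library was the lowest of its group at 28.6 CPM, so its difference from sham was as large without it. Of the striatal and choroid plexus markers 0 were called on day 3 or day 7, with 0 of the striatal markers at an unadjusted p under 0.05 and 0 by DESeq2. In the choroid plexus list 1 gene had an unadjusted p under 0.05 on day 7, and DESeq2 called 0. Control replicate A held 501 CPM of choroid plexus markers, almost all of it *Ttr*. How far these cells share in the levels of the 9 genes was not tested.

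Over the 48 libraries, the genes whose log2(CPM + 1) followed each of the 9 most closely were named by a rule of likeness (Pearson r, genes with a mean of at least 5 CPM). For *Bcas1* these were *Tmem88b* (r = 0.88), *Pllp* and *Cnp*, and for *Sox10* they were *Tmem88b* (0.81), *Gjb1* and *Cldn11*. *Myrf* went with *Prr18* (0.78), *Tmcc3* and *Mbp*. For *Gpr17* the closest were *Kcne1l* (0.74), *P2ry12* and *Tbc1d16*, and for *Enpp6* they were *Fxyd1* (0.60), *S100a1* and *Kcne1l*. *Olig1* went with *Fth1* (0.81), *Pacs2* and *Map4k4*, *Olig2* with *Htra2* (0.79), *Id3* and *Lgmn*, and *Pdgfra* with *Sec13* (0.75), *Txn1* and *Tram1*. For *Lhfpl3* they were *Limch1* (0.71), *Cacng5* and the overlapping *Gm21846*. Among the 9 genes themselves *Sox10* and *Bcas1* had r = 0.83, and *Pdgfra* and *Olig2* had r = 0.67. The libraries share their groups, their depth and their tissue makeup, so these values describe the libraries and no p is given.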

How the data were processed

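RNA of mouse brain tissue after permanent MCAO, sham surgery or no surgery was sequenced with a kit that reads transcripts from the 3′ end (QuantSeq, single-end reads, ERCC spike-ins). The series description speaks of 3 hemispheres per time point, whereas the sample labels list 4 or 5 libraries per group. Per the study's methods, the authors trimmed the reads, removed mitochondrial and ribosomal reads, aligned the rest to GRCm38 with STAR 2.5.2b (the submitters' processing notes also name HTSeq and DESeq) and ran htseq-count (union mode) with the Gencode vM8 annotation; the strand setting is not given in the sources used here. The authors deposited a table of raw counts for each library. A matrix on a transformed log2 scale that the authors also deposited was not used here. Library sizes and tests left out the spike-ins and the reads without a feature (median 23.5% of the alignments listed), with several features (0.400%) or with several alignments (33.5%). Symbols and coordinates came from Gencode vM21 (46488 of 46983 identifiers matched).

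The 19970 genes whose counts summed to more than 10 entered edgeR 4.0.16 (R 4.3.3; TMM, glmQLFit and glmQLFTest) in a single fit of 11 groups, without covariates. Calls required an adjusted p below 0.01 (Benjamini-Hochberg, over all genes tested) and a log2 fold change beyond 0.58 in either direction. F-tests used the adjusted p alone. The common biological coefficient of variation was 24.9%. Replicates are letters in the labels, so p-values measure the spread between these libraries. No libraries held identical counts. Levels, summaries and figures were made in Python 3.11.15 with numpy 2.4.6, pandas 2.3.3 and matplotlib 3.10.9.

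The 9 genes, the further lists and the tests were chosen with earlier results of these data known. All 9 genes were described in every group; genes of other lists were named when called, as the most abundant of a list, or as a marker at 0, and for each of the 9 genes the 3 with the highest Pearson r. Promoters came from RefSeq (GRCm38.p6). Alternatives were DESeq2's size factors, DESeq2 1.42.0, filterByExpr, no filter, spike-in scaling, only the compared groups in the fit, the replicate letter as a block, each library left out in turn, and a minimum of 20 CPM for likeness. Results of some listed genes are not reported here.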

Additional observations from a re-analysis of the deposited data

Results flagged for a closer look

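A few libraries stood outside the rest of their group in 1 of the 9 genes. Of 99 pairs of gene and group tested with Dixon's criterion, 5 had such a library, about the 1 in 20 that chance gives. Sham day 3 replicate C held 31.3 CPM of *Pdgfra*, above the other 3 shams of that day, and control replicate B held 133.2 CPM of *Olig1*, above the other 3 controls. MCAO 12 h replicate C held 58.42 CPM of *Olig1*, below the 4 other libraries. Sham 24 h replicate C held 4.268 CPM of *Lhfpl3*, below the other 3. MCAO 24 h replicate D held 53.16 CPM of *Myrf*, against 11.2 to 14.9 CPM in the other 3, and the same library held the highest *Bcas1* (232.8 CPM) and *Sox10* (72.1 CPM) of its group. In that library the myelin genes summed to 5744 CPM and the striatal markers to 4231 CPM, both the highest of the 24 h MCAO group, and their part in the *Myrf* level was not tested.

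The difference between MCAO and sham varied among the 5 times for *Olig1* (adjusted p = 0.000989 from edgeR's F-test) and for *Gpr17* (adjusted p = 2.85e-05). Both genes had a negative log2 fold change at 12 h, in 5 of 5 MCAO libraries below all shams, and a positive 1 later, with 4 of 5 MCAO libraries above all shams for *Olig1* on day 3 and 5 of 5 for *Gpr17* on day 7.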

How the results depend on the processing

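Only log2 fold changes of the 9 genes with an unadjusted p under 0.05 in edgeR, against sham or control, were recomputed. These 27 values gave 431 alternatives, of which 0 reversed, 380 kept their side of the threshold, 44 lost and 7 gained a call. Values chosen for lying away from 0, refitted on nearly the same libraries, could hardly reverse, so the 0 says little. The number of the 9 genes called went from 0 to 2 at 12 h with DESeq2 and with no filter (0 to 1 without single libraries). Against the day 3 sham it went from 3 to 0 under spike-in scaling, with the replicate block and with only the compared groups (0 to 3 without single libraries), and against the day 7 sham from 3 to 1 with only the compared groups (1 to 3 without single libraries). Against the control on day 3 it went from 1 to 0 under spike-in scaling and with only the compared groups (0 to 2 without single libraries). The cause was not tested. All other comparisons kept their counts of the 9 genes.

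A pairing of the libraries by replicate letter was looked for and not established. Of 226 same-letter pairs, 55 had a correlation of deviations over 0.1, a count that was not made for the 820 other pairs. The median was 0.00556, against -0.00375 for the other pairs, and 13 of 48 libraries were closest to their own letter. Medians near 0 do not show that no libraries were paired. With the letter as a replicate block, 3 genes were called on day 7 against sham and 2 among times, as without it, and 0 on day 3 against sham.

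Counts over all genes moved more, from 22 to between 5 and 58 at 3 h, 82 (13 to 179) at 12 h, 18 (6 to 55) at 24 h, 802 (339 to 1353) on day 3 and 698 (241 to 1096) on day 7 against sham. Against the control they were 56 (32 to 126) at 24 h, 619 (224 to 1075) on day 3 and 300 (82 to 463) on day 7. They were 98 (65 to 475) among times, 23 (18 to 37) among control and shams, 2 (2 to 11) from 24 h to day 3 and 0 (0 to 57) from day 3 to day 7. Spike-in scaling moved the median log2 fold change of all genes to -0.22 on day 3 and 0.14 on day 7 against sham and to -0.28 on day 3 against the control. The higher share of the called genes was then 78.0%, 82.4% and 50.3%, in place of 93.5%, 59.2% and 90.6%, and at 3 h 64.3% in place of 81.8%. With a minimum of 20 CPM for likeness, the closest gene differed for *Gpr17* alone (*Zbtb20*). Depth limits *Enpp6* most, with at most 24 counts per library.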

Other observations

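In the day 7 sham, replicate D held the lowest level of its group in 7 of the 9 genes, among them *Pdgfra* (1.83 CPM), *Olig2* (4.56 CPM), *Gpr17* (6.84 CPM) and *Olig1* (77.6 CPM), and the highest of *Bcas1* (139.6 CPM). Without it 241 genes in place of 698 were called on day 7 against sham. Its microglia markers summed to 511 CPM, the highest of the 4, and its fibroblast markers to 70.3 CPM, the lowest. Sham 12 h replicate C held the lowest *Bcas1* (31.4 CPM) and *Sox10* (18.1 CPM) of its group and the highest *Olig1* (148.2 CPM), with the lowest summed myelin genes (1836 CPM) and striatal markers (673 CPM) of the 4.

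The microglial gene *P2ry12*, a purinergic receptor of resting microglia, fell by 1.78 on the log2 scale at 12 h (adjusted p = 0.00927 from edgeR, called in 5 of 16 alternatives with an adjusted p of up to 0.24), and its difference between MCAO and sham also varied among the times (adjusted p = 0.00252 from edgeR). At the same time *Gfap*, the intermediate filament of astrocytes, rose by 2.67 (adjusted p = 5.6e-05 from edgeR, called in all 16 alternatives). The difference between MCAO and sham also varied among the times for *Megf11* and *Igf1* of the lineage lists (adjusted p = 0.00517 and 0.00656 from edgeR), for *C4b* (adjusted p = 0.00252), for the astrocyte genes *Gja1* and *Gfap* (0.0026 and 0.000441), for the microglial genes *Csf1r* and *C1qa* (0.00221 and 0.000989) and for 0 of the 12 myelin genes (7 at an unadjusted p under 0.05, 2 by DESeq2).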
